A study of Mus musculus with 6 samples.

Results

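Genes of lipid-laden macrophages, 10 in all, were followed in the lungs of smoke-exposed mice: Gpnmb, Trem2, Spp1, Apoe, Abca1, Abcg1, Plin2, Cd36, Msr1 and Atp6v0d2. They were chosen by name, for their known place in macrophages that take up and store lipid, and were found by Ensembl identifier. The choice was made with earlier results of these data known. All 10 were among the 55573 genes of the deposited table, and 9 had enough reads to enter the comparison of 16965 genes. The 6 libraries came from total RNA of lungs, taken from C57BL/6 wild type animals 9 to 10 weeks old. The 3 CS libraries came from mice given cigarette smoke for 75 min per session, with 2 sessions a day on 5 days a week over 4 weeks. The 3 SS-31H_CS libraries came from mice that received smoke together with SS-31, a peptide antioxidant directed to mitochondria, at 5 mg/kg once a day. Both groups were thus exposed to smoke, though the labels give the schedule for CS alone, and no unexposed lung was analysed here, so no background level of these genes could be set beside the values. Whether each library came from its own animal is not given, and p-values then measure only the spread between these libraries, which may be technical.

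Alveolar macrophages clear surfactant and inhaled particles from the air spaces, and under cigarette smoke they are known to fill with lipid. Such cells take up lipid through scavenger receptors (Cd36, Msr1), store it in droplets coated by perilipin 2 (Plin2), break it down in lysosomes acidified by a proton pump (Atp6v0d2), and pass sterol out through the transporters Abca1 and Abcg1 to lipoprotein particles that carry Apoe. Gpnmb, Trem2 and Spp1 are known as genes of the lipid-associated macrophage state. Several of the 10 are also made elsewhere in the lung, Cd36 in capillary endothelium and adipocytes and Apoe in many cell types. These were whole-lung samples, so fewer cells of a type and less RNA per cell cannot be told apart.

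The upstream sequences of 3 members that took different courses, and of 1 that was nearly absent, are shown here for reference. They are the 250 bases before the RefSeq gene start (build GRCm38.p6), 5′ to 3′ on the gene's own strand, and 7 of the 10 members matched the RefSeq table by symbol. Gpnmb had the lowest p among the members, Apoe was the one whose SS-31H_CS libraries were all above the CS libraries, Abca1 varied between CS libraries, and Trem2 had almost no reads. Capitals mark every match, on either strand, to the motifs described after the sequences.
Gpnmb, chr6:49036268-49036517, plus strand: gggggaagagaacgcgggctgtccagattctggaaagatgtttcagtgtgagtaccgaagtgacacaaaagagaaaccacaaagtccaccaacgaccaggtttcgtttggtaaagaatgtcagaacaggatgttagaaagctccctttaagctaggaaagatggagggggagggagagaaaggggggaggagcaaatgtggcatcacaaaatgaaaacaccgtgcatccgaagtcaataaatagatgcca
Apoe, chr7:19699189-19699438, minus strand: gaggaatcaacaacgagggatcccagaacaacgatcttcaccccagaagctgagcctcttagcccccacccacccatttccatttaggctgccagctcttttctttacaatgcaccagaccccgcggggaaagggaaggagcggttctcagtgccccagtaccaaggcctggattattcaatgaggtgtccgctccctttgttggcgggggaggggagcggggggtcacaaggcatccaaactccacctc
Abca1, chr4:53159896-53160145, minus strand: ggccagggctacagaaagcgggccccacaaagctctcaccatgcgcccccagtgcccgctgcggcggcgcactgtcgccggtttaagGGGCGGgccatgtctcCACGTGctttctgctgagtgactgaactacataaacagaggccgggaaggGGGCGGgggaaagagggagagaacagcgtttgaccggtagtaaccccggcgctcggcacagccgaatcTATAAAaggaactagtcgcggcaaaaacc
Trem2, chr17:48346151-48346400, plus strand: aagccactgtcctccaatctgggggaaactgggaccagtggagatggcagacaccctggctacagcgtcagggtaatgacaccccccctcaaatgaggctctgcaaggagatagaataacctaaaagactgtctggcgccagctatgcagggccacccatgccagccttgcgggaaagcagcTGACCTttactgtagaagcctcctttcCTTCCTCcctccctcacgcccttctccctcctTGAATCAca
The motifs searched were CACGTG (the E-box of MiT/TFE and other basic helix-loop-helix factors), TCATGTG (the M-box of MITF), GAGGAAG (PU.1), TTGCNNAA (C/EBP), TGANTCA (AP-1), AGGTCA (the nuclear receptor half-site), its direct repeats with a spacing of 4 bases (DR4, of LXR) and of 1 base (DR1, of PPAR), GGGCGG (the GC box) and TATAAA. The half-site lies within both repeats, and no other motif contains another. In Abca1 a CACGTG began 147 bases before the start, GGGCGG 163 and 97 bases before it, and TATAAA 29 bases before it. Trem2 held the reverse complements of AGGTCA and GAGGAAG and a TGAATCA. None of the letters searched occurred in the windows of Gpnmb and Apoe shown. Apoe had other RefSeq starts, whose windows are not shown. In 1 of them TATAAA began at position -96 and its reverse complement at -100, counted from that start. Over all 32851 windows of the same length, CACGTG was found in 6.02%, GGGCGG in 32.7%, TATAAA in 12.4%, GAGGAAG in 10.6%, AGGTCA in 14.0%, TGANTCA in 6.75%, TTGCNNAA in 9.56%, TCATGTG in 3.25%, DR4 in 0.0152% and DR1 in 0.0335%. Only exact repeats of AGGTCA were searched, so a repeat with other letters was not marked. A match describes the letters in the window and not a bound site.

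Depth was even, at 15611925 to 17360052 counts per library, and 3 counts corresponded to 0.172 to 0.185 CPM (counts scaled to library depth). CPM were computed with library sizes scaled by the TMM method. On the first principal component of log2 CPM, which held 46.4% of the variance, CS replicate 3 (-61.3) and SS-31H_CS replicate 3 (44.8) lay at the ends. Member fold changes that moved most without either library are given with and without it.

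None of the 9 tested members passed an adjusted p of 0.05 between SS-31H_CS and CS (edgeR quasi-likelihood fit, Benjamini-Hochberg over all genes). Of all tested genes 0.153% did, 0.0825% lower and 0.0707% higher in SS-31H_CS. DESeq2, which called 5.58% of the genes it gave an adjusted p (2.37% lower and 3.21% higher), called 3 members, Gpnmb and Cd36 lower and Apoe higher. With limma voom (0.0354% of genes called) and limma trend on log2(FPKM + 1) (0.0370%) 0 members passed. At an unadjusted p under 0.05, which 18.2% of tested genes reached, edgeR gave 4 members, 3 lower in SS-31H_CS (Gpnmb, Cd36, Atp6v0d2; 8.23% of tested genes were lower at that level) and 1 higher (Apoe; 9.93%). The libraries of the 2 groups did not overlap in 5 members (26.1% of tested genes), 4 lower (Gpnmb, Spp1, Cd36 and Atp6v0d2; 12.4% of tested genes) and 1 higher (Apoe; 13.6%). The log2 fold change, SS-31H_CS over CS, was negative in 7 of 9 (48.6% of tested genes) with a median of -0.46, and the median over all tested genes was 0.01. The members had been selected with results of these libraries known, and these counts describe them without a test of the set.

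**Figure D1:**
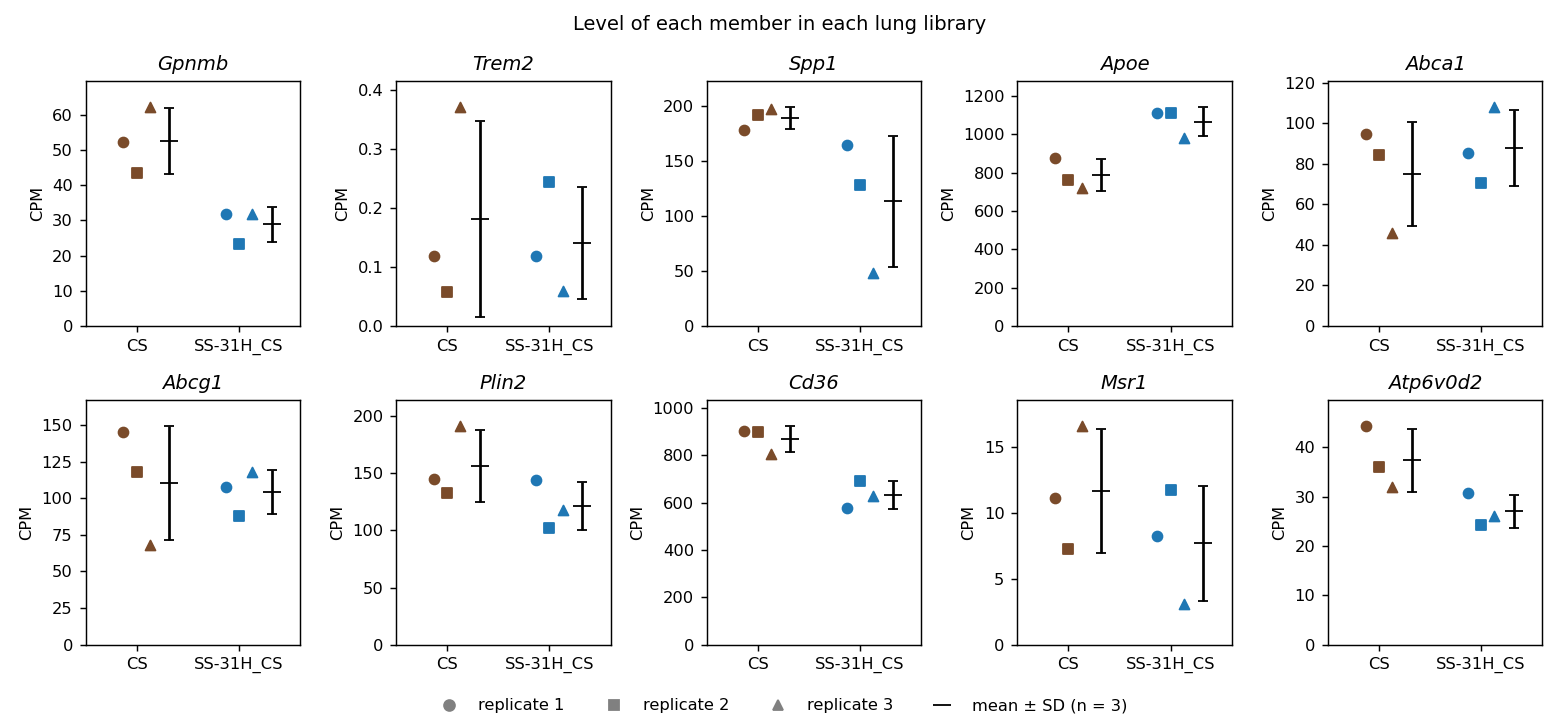
Level of each of the 10 genes in CPM (linear axis from 0) in the 3 CS libraries (brown) and the 3 SS-31H_CS libraries (blue), with marker shape for the replicate number and bars for mean ± SD. Gpnmb, Spp1, Cd36 and Atp6v0d2 have every SS-31H_CS point below every CS point, Apoe has every SS-31H_CS point above, and Trem2 stays under 0.4 CPM.

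Gpnmb encodes a transmembrane glycoprotein of macrophages and melanocytes that is made under lysosomal load. Gpnmb (ENSMUSG00000029816, GRCm38 chromosome 6, 49036546 to 49070929, plus strand) reached 52.3, 43.4 and 62.2 CPM in the CS libraries, given throughout in the order of replicates 1, 2 and 3. In the SS-31H_CS libraries it reached 31.9, 23.2 and 31.7 CPM. The lowest CS library stood above the highest SS-31H_CS library. The group means were 52.7 ± 9.37 and 28.9 ± 4.94 CPM (SD, n = 3 per group), a level 1.82-fold higher in CS. Its log2 fold change was -0.86 (SE 0.17, 95% interval -1.26 to -0.47), with an unadjusted p of 0.00102 and an adjusted p of 0.0893 by edgeR. With any 1 library left out the log2 fold change lay between -0.99 and -0.73, with -0.73 when CS replicate 3 was omitted and -0.94 when SS-31H_CS replicate 3 was. DESeq2 gave an adjusted p of 0.00138 for Gpnmb, and over the alternatives to the main test its adjusted p ran from 0.00138 to 0.252.

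Trem2, the lipid-sensing receptor whose name is often given to this macrophage state, was close to absent. Trem2 (ENSMUSG00000023992, chromosome 17, 48346401 to 48354147, plus strand) had 2, 1 and 6 counts in CS replicates 1, 2 and 3 and 2, 4 and 1 counts in SS-31H_CS replicates 1, 2 and 3. The deposited FPKM, fragments scaled to gene length and library depth, were 0.01 to 0.07. Most of these counts are at or under 3 reads, so no fold is given and a difference between groups was not detectable at this depth. Tyrobp, the adaptor through which Trem2 and several other myeloid receptors signal, was well detected, at 111, 115 and 123 CPM in CS and 128, 77.6 and 54.0 CPM in SS-31H_CS. Its groups overlapped (log2 fold change -0.43, adjusted p = 0.431 by edgeR).

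Cd36, a receptor for oxidised lipoproteins and long-chain fatty acids, was the more abundant of the 2 scavenger receptors. Cd36 (ENSMUSG00000002944, chromosome 5, 17781690 to 17888801, minus strand) was at 904, 899.7 and 805 CPM in CS and 576, 692 and 630.2 CPM in SS-31H_CS. Every CS library stood above every SS-31H_CS library. The means were 869.7 ± 56.1 and 633 ± 58.2 CPM, with a log2 fold change of -0.46 (SE 0.13, 95% interval -0.75 to -0.17, adjusted p = 0.143 by edgeR). It was -0.52 without CS replicate 3, and between -0.53 and -0.40 with any 1 library left out.

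Endothelial cells also make Cd36. The summed level of endothelial markers (9 of 9 tested) was 3656 to 4344 CPM in CS and 2869 to 3410 CPM in SS-31H_CS, so the groups did not overlap. Of the 9, 0 passed the adjusted threshold by edgeR, and 2 had a positive log2 fold change. Before adjustment 3 were lower at an edgeR p under 0.05 (8.23% of all tested genes), among them Pecam1 (log2 fold change -0.51) and Cdh5 (-0.57). Adipocyte markers (7 of 8 tested) summed to 145.6 to 171.7 CPM in CS and 89.4 to 144.3 CPM in SS-31H_CS. By group means the largest part of this sum was Lipe, given below with the lipid droplet genes. But 5 of the 7 had a positive log2 fold change (median 0.17), among them Adipoq, at 2.14 and 3.98 CPM as group means. The part of either cell type in the Cd36 values was not tested.

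Msr1, the class A scavenger receptor of macrophages, was low and variable. Msr1 (ENSMUSG00000025044, chromosome 8, 39581685 to 39642673, minus strand) was at 11.2, 7.22 and 16.6 CPM in CS and 8.28, 11.7 and 3.06 CPM in SS-31H_CS. The groups overlapped, with the highest value in CS replicate 3 and the lowest in SS-31H_CS replicate 3. The log2 fold change was -0.60 (95% interval -1.68 to 0.48, adjusted p = 0.522 by edgeR), -0.26 with CS replicate 3 omitted and -0.23 with SS-31H_CS replicate 3 omitted. This interval includes both a lower level and a somewhat higher one, so no direction was established for Msr1.

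**Figure D2:**
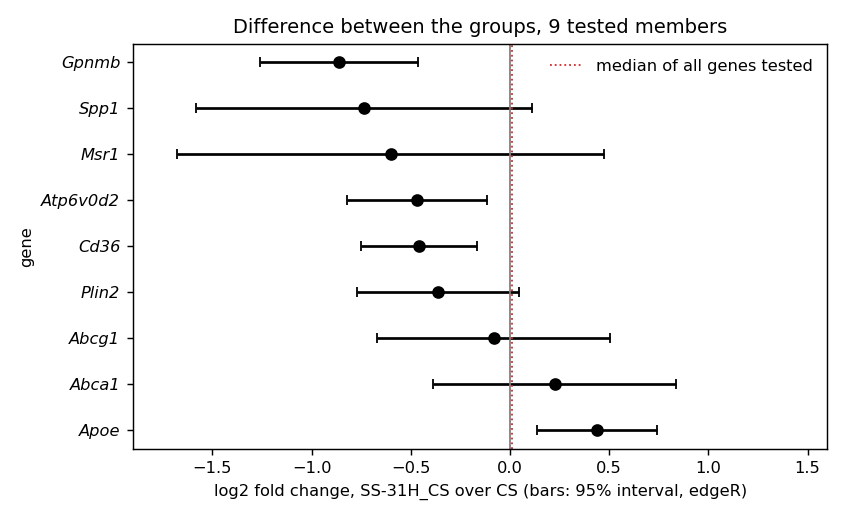
Log2 fold change, SS-31H_CS over CS, of the 9 tested members with 95% intervals from edgeR's fit; the dotted line is the median over all tested genes (0.01). The intervals of Gpnmb, Atp6v0d2 and Cd36 lie below 0 and that of Apoe above 0 before adjustment, and the intervals of Spp1, Msr1, Plin2, Abcg1 and Abca1 include 0.

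Apoe, the lipoprotein component that accepts sterol leaving the cell, was the 1 member whose SS-31H_CS libraries all lay above the CS libraries. Apoe (ENSMUSG00000002985, chromosome 7, 19696109 to 19699188, minus strand) was at 879, 764 and 721 CPM in CS and 1111, 1109 and 981 CPM in SS-31H_CS. The means were 788 ± 81.8 and 1067 ± 74.6 CPM, 1.35-fold higher in SS-31H_CS, with a log2 fold change of 0.44 (SE 0.13, 95% interval 0.13 to 0.74) and an adjusted p of 0.165 by edgeR. The value was 0.37 without CS replicate 3, the lowest of the Apoe values with 1 library left out, and DESeq2 gave an adjusted p of 0.0400. Apoe was also the most abundant member per gene length, at 361 ± 42.4 FPKM in CS and 508 ± 43.1 FPKM in SS-31H_CS. Fibroblast markers, from cells that can also make Apoe, summed to 3720 and 3786 CPM in CS replicates 1 and 2, 2549 CPM in CS replicate 3 and 3719 to 4181 CPM in SS-31H_CS, and their part in the Apoe values was not tested.

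The sterol exporters Abca1 and Abcg1 are both targets of the LXR nuclear receptors, and both were lowest in CS replicate 3. Abca1, which loads sterol onto lipid-poor apolipoproteins (ENSMUSG00000015243, chromosome 4, 53030787 to 53159895, minus strand), was at 94.8, 84.4 and 45.9 CPM in CS and 85.1, 70.5 and 107.8 CPM in SS-31H_CS. Abcg1, which passes sterol to mature high-density lipoprotein (ENSMUSG00000024030, chromosome 17, 31057675 to 31117988, plus strand), was at 145.3, 118.3 and 68.0 CPM in CS and 107.8, 87.7 and 117.9 CPM in SS-31H_CS. Both genes overlapped between the groups. The log2 fold change of Abca1 was 0.23 (95% interval -0.39 to 0.84, adjusted p = 0.677 by edgeR), and turned to -0.03 without CS replicate 3. That of Abcg1 was -0.08 (95% interval -0.67 to 0.50, adjusted p = 0.886), -0.34 without CS replicate 3 and 0.16 without CS replicate 1. No direction was established for either exporter.

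The ratio of the 2 exporters was also read within each library. Abcg1 over Abca1 in FPKM, a comparison per gene length chosen after the values had been seen, was 2.18, 1.99 and 2.10 in CS replicates 1, 2 and 3 and 1.80, 1.77 and 1.55 in SS-31H_CS replicates 1, 2 and 3. All 3 SS-31H_CS ratios were below all 3 CS ratios, and CS replicate 3, low in both genes, had a ratio inside the range of the other CS libraries. The difference was -0.29 on the log2 scale, with p = 0.1 in a two-sided exact permutation test over the 6 libraries, the smallest p that 3 against 3 allows.

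**Figure D3:**
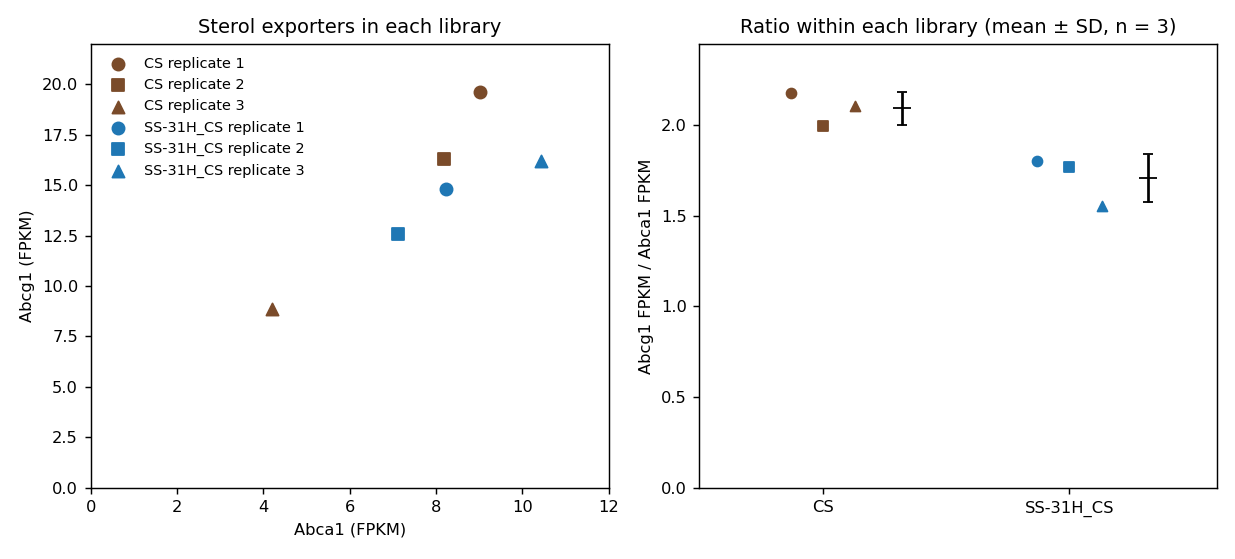
Left, Abcg1 against Abca1 in FPKM, 1 point per library; right, the ratio Abcg1 over Abca1 in each library with mean ± SD. CS replicate 3 is lowest in both genes, and the ratio is 1.99 to 2.18 in CS and 1.55 to 1.80 in SS-31H_CS.

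Plin2 coats lipid droplets and its transcript is commonly read as a sign of stored neutral lipid. Plin2 (ENSMUSG00000028494, chromosome 4, 86648386 to 86670060, minus strand) was at 145.0, 132.8 and 191.8 CPM in CS and 144.3, 102.3 and 118.3 CPM in SS-31H_CS. CS replicate 3 was the highest, and SS-31H_CS replicate 1 lay between CS replicates 1 and 2. The log2 fold change was -0.36 (SE 0.18, 95% interval -0.77 to 0.05, adjusted p = 0.326 by edgeR), and -0.20 without CS replicate 3. Set against Plin3, the other widely expressed perilipin, the FPKM ratio was 1.71, 1.77 and 2.42 in CS and 1.49, 1.30 and 1.62 in SS-31H_CS. These ratios did not overlap (log2 difference -0.41, two-sided exact permutation p = 0.1), and the pair was chosen after the values had been seen.

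Atp6v0d2 is the macrophage and osteoclast form of the d subunit in the membrane part of the vacuolar proton pump. Atp6v0d2 (ENSMUSG00000028238, chromosome 4, 19876841 to 19922605, minus strand) was at 44.4, 35.99 and 31.9 CPM in CS and 30.7, 24.3 and 26.2 CPM in SS-31H_CS. The groups did not overlap, with CS replicate 3 and SS-31H_CS replicate 1 close to each other. The means were 37.4 ± 6.38 and 27.1 ± 3.33 CPM, and the log2 fold change was -0.47 (SE 0.15, 95% interval -0.82 to -0.11, adjusted p = 0.185 by edgeR). It was -0.57 without CS replicate 3 and -0.33 without CS replicate 1. The widely expressed d subunit gene Atp6v0d1 had group means of 116 and 107.7 CPM (log2 fold change -0.11, adjusted p = 0.623), and the FPKM ratio of Atp6v0d2 to Atp6v0d1 was 0.253, 0.214 and 0.174 in CS and 0.175, 0.164 and 0.158 in SS-31H_CS. These ratios overlapped narrowly (two-sided exact permutation p = 0.2).

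Spp1 encodes osteopontin, a secreted ligand of integrins and of Cd44. Spp1 (ENSMUSG00000029304, chromosome 5, 104435118 to 104441050, plus strand) was at 178, 192 and 197 CPM in CS and 164, 129 and 48.0 CPM in SS-31H_CS. The CS libraries lay close together, and SS-31H_CS spread widely, with replicate 3 lowest and replicate 1 just under the CS range. The means were 189 ± 9.94 and 113.7 ± 59.6 CPM, with a log2 fold change of -0.73 (SE 0.37, 95% interval -1.58 to 0.11, adjusted p = 0.336 by edgeR). Omitting SS-31H_CS replicate 3 gave -0.37, and omitting SS-31H_CS replicate 1 gave -1.11. Neutrophil markers (7 of 7 tested) had a like order in SS-31H_CS, summing to 3403, 1298 and 463 CPM in replicates 1, 2 and 3. In CS they summed to 3061, 2430 and 3637 CPM, an order unlike that of Spp1. S100a8 and S100a9 were detected in every library. The part of neutrophils in the Spp1 values was not tested. Of the exon length of Spp1, 18.8% is shared with Gm42793 on the same strand, and the exons of the other 9 members overlap no other annotated gene.

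Per gene length, the order of the members was nearly the same in both groups. In CS the mean FPKM ran from Apoe (361) through Cd36 (238), Spp1 (112), Plin2 (43.5), Abcg1 (14.9), Atp6v0d2 (13.5), Gpnmb (7.89), Abca1 (7.13) and Msr1 (1.79) to Trem2 (0.0333). The ranges of Abcg1 and Atp6v0d2 overlapped in CS, as did those of Gpnmb and Abca1, and the other neighbours did not. In SS-31H_CS, Abca1 (8.60) stood above Gpnmb (4.51) without overlap. There the neighbours Spp1 and Plin2, and Atp6v0d2 and Abca1, overlapped.

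General macrophage markers were detected in all libraries, but they do not show whether the lipid-laden state was present. The 10 general macrophage markers, Cd68 and Csf1r among them, were all tested, with 0 past the adjusted threshold by edgeR. Of these 1 (Mertk, log2 fold change -0.42) had an unadjusted edgeR p under 0.05, which 18.2% of all tested genes reached. Their summed level was 7426, 6396 and 4604 CPM in CS and 6849, 6236 and 7135 CPM in SS-31H_CS, and overlapped. Lyz2, which alveolar type 2 cells also express and whose reads may be shared with its close copy Lyz1, made up 87.9% to 93.8% of that sum. Without Lyz2 the sums were 502 to 556 CPM in CS and 445 to 587 CPM in SS-31H_CS.

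The summed level of alveolar macrophage markers was lower in the SS-31H_CS libraries. The 8 markers, Siglecf and Marco among them, summed to 1472 to 1869.96 CPM in CS and 644 to 989 CPM in SS-31H_CS, without overlap. By edgeR 0 of the 8 passed the adjusted threshold, and 4 were lower at an unadjusted p under 0.05 (8.23% of all tested genes). The log2 fold change was negative in 6 and positive in 2. Chil3, a chitinase-like secreted protein, made up 66.6% to 87.1% of this sum. Without it the sums were 240.9 to 299.5 CPM in CS and 195.5 to 239.7 CPM in SS-31H_CS, nearly touching. No marker of the 8 cell type lists was at 0 in all 6 libraries.

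Member levels were also expressed as a percent of each marker sum. Relative to the macrophage markers Gpnmb was 0.705%, 0.679% and 1.35% of the summed CPM in CS and 0.465%, 0.372% and 0.444% in SS-31H_CS, a log2 difference of -1.02 (two-sided exact permutation p = 0.1, the smallest possible), and -0.70 without CS replicate 3. The log2 difference was -0.85 without Lyz2, again with no overlap (exact p = 0.1). Relative to the alveolar macrophage markers it was 3.08%, 2.95% and 3.32% in CS and 3.22%, 2.53% and 4.92% in SS-31H_CS, which overlapped (log2 difference 0.14, exact p = 0.8). Without Chil3 in that sum the log2 difference was -0.58 (exact p = 0.1), so the sign of this difference depended on whether Chil3 was counted.

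Apoe kept a positive difference against each marker sum tried. Its log2 difference was 0.28 relative to the macrophage markers (exact permutation p = 0.2), 0.45 without Lyz2 (p = 0.1), 1.44 relative to the alveolar macrophage markers (p = 0.1) and 0.72 without Chil3 (p = 0.1). Relative to the macrophage markers Atp6v0d2 was 0.598%, 0.563% and 0.692% in CS and 0.449%, 0.389% and 0.367% in SS-31H_CS (log2 difference -0.62, exact p = 0.1), and Cd36 had a log2 difference of -0.62 (exact p = 0.1). Relative to the alveolar macrophage markers both were positive, at 0.54 each, Atp6v0d2 without overlap (exact permutation p = 0.1) and Cd36 with overlap (exact p = 0.2). Without Chil3 both were -0.18. The remaining 5 tested members had exact p of 0.2 to 0.6 relative to the macrophage markers. All 9 tested members were compared in this way, and no exact p here can pass 0.05 with or without adjustment over the 9.

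**Figure D4:**
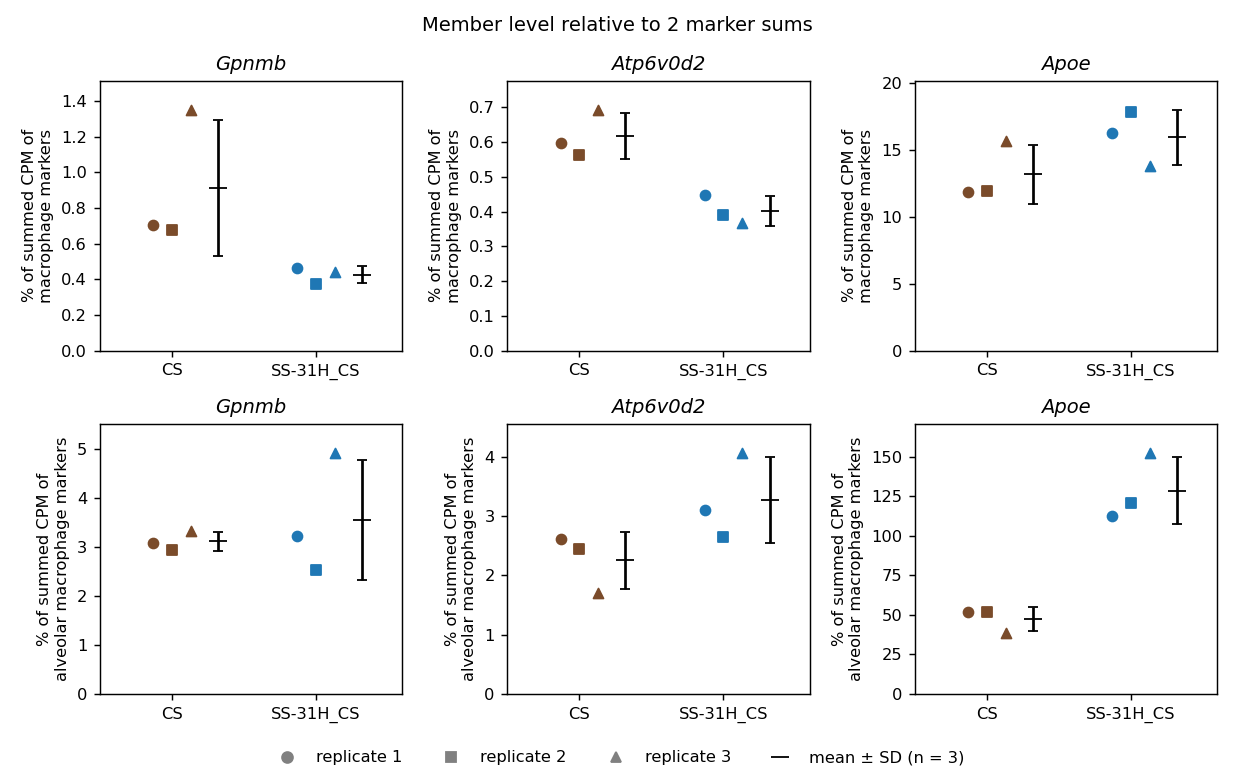
Gpnmb, Atp6v0d2 and Apoe as a percent of the summed CPM of 10 macrophage markers (top) and of 8 alveolar macrophage markers (bottom) in each library, with mean ± SD (n = 3). Against the macrophage markers Gpnmb and Atp6v0d2 are lower in SS-31H_CS without overlap, and against the alveolar macrophage markers, which are dominated by Chil3, Gpnmb overlaps between the groups and Atp6v0d2 is higher in SS-31H_CS without overlap.

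Related genes were read from 9 lists in the same fit. The shares of all tested genes at an unadjusted edgeR p under 0.05, to set beside each list's count, were 8.23% lower and 9.93% higher. Of 15 tested genes of lipid uptake, 1 was called lower by edgeR and 0 higher, 4 were lower and 1 higher at an unadjusted p under 0.05, and the median log2 fold change was -0.18. The called gene, Lpl, encodes the lipase that frees fatty acids from lipoproteins and fell from 280.05, 279.6 and 271.3 CPM in the CS libraries to 120.9, 122.7 and 121.2 CPM in the SS-31H_CS libraries (log2 fold change -1.19, SE 0.10, adjusted p = 0.00900 by edgeR). Lpl was still called without CS replicate 3, and was not called with any other single library left out, when the list's count was 0. The scavenger receptor gene Marco was at 25.7 ± 4.04 and 12.6 ± 2.25 CPM (-1.03, adjusted p = 0.0800), and the fatty acid transporter gene Slc27a1 at 47.5 ± 3.43 and 68.0 ± 9.69 CPM (0.52, adjusted p = 0.127). DESeq2, with 5.58% of all genes called, called 5 of the 15, 4 lower and 1 higher, and limma voom 1.

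Sterol genes beyond the 2 exporters were mixed. Of 16 tested, 2 were lower (8.23% of all tested genes) and 1 higher (9.93%) at an unadjusted edgeR p under 0.05. By adjusted p edgeR called 0 and DESeq2 2, both lower (2.37% of all genes by DESeq2). The median was -0.03. Nceh1, which releases cholesterol from its stored esters, was at 104.6, 94.5 and 100.5 CPM in CS and 65.1, 64.8 and 71.8 CPM in SS-31H_CS (log2 fold change -0.57, adjusted p = 0.0808). Lpcat3, a phospholipid-remodelling target of LXR, was at 75.2 ± 2.51 and 52.3 ± 2.26 CPM (-0.52, adjusted p = 0.0808). Cyp27a1, the sterol 27-hydroxylase, stood at 30.7 ± 9.04 and 43.9 ± 0.997 CPM (0.51, adjusted p = 0.248). The LXR genes Nr1h3 (-0.13) and Nr1h2 (-0.06) overlapped between the groups, with adjusted p of 0.693 and 0.843 by edgeR.

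Of 17 tested lipid droplet genes, 3 were lower (8.23% of all tested genes) and 2 higher (9.93%) at an unadjusted edgeR p under 0.05. After adjustment 0 passed by edgeR, and DESeq2 called 1, lower (2.37% of all genes by DESeq2). The median was -0.13. The lipase genes Lipe (98.9 ± 9.09 and 62.3 ± 17.9 CPM, log2 fold change -0.67, adjusted p = 0.171) and Pnpla2 (218 ± 4.32 and 162.7 ± 28.7 CPM, -0.42, adjusted p = 0.185) were lower without overlap. Acsl1, which activates fatty acids, was higher without overlap (58.9 ± 2.47 and 84.3 ± 21.8 CPM, 0.52, adjusted p = 0.191).

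Around Trem2, 8 of 9 signalling genes were tested and 0 passed by edgeR. DESeq2 called 2, 1 lower (2.37% of all genes) and 1 higher (3.21%). Before adjustment 1 was lower (8.23% of all tested genes) and 1 higher (9.93%) at an edgeR p under 0.05. Ms4a7, a membrane protein of mature macrophages, was at 2.92 ± 0.398 and 6.80 ± 2.34 CPM (log2 fold change 1.22, adjusted p = 0.125). Inpp5d, the phosphatase SHIP1 that restrains this pathway, was at 112 ± 12.4 and 74.6 ± 12.3 CPM (-0.58, adjusted p = 0.131). Of 12 other genes of the lipid-associated macrophage programme, 0 passed by edgeR or DESeq2 and 1, the galectin gene Lgals3, was lower at an unadjusted p under 0.05 (-0.52, adjusted p = 0.257). The lysosomal protease gene Ctsd (-0.28) and the tetraspanin gene Cd9 (-0.20) had adjusted p of 0.367 and 0.377. The median of these 12 was -0.11, against -0.46 in the 9 tested members.

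Other proton pump and lysosomal regulator genes were read beside Atp6v0d2. Of 22 other proton pump subunit genes, 4 were higher (9.93% of all tested genes) and 0 lower (8.23%) at an unadjusted edgeR p under 0.05. After adjustment 0 passed by edgeR, and DESeq2 called 1, higher (3.21% of all genes by DESeq2). The median was 0.01. Atp6v1b1, a subunit form of ion-transporting epithelial cells, was at 1.42, 1.38 and 0.926 CPM in CS and 5.20, 3.30 and 5.18 CPM in SS-31H_CS (log2 fold change 1.87, adjusted p = 0.0746). Atp6v1d (0.28) and Atp6v1c2 (0.59) had adjusted p of 0.211 and 0.235. Of 11 tested genes for MiT/TFE factors and osteoclast-type genes, 0 passed by edgeR, by DESeq2 or at an unadjusted p under 0.05. Mitf, whose factor is known to drive Gpnmb in melanocytes and osteoclasts, was at 14.6, 13.01 and 15.5 CPM in CS and 12.2, 12.2 and 11.7 CPM in SS-31H_CS (-0.25, adjusted p = 0.384), Tfe3 had a log2 fold change of -0.24 and the acid phosphatase gene Acp5 of -0.26.

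In the PPAR and GM-CSF axis, which shapes alveolar macrophages, 0 of 9 passed by edgeR. Before adjustment 2 were lower at an edgeR p under 0.05 (8.23% of all tested genes). DESeq2 called 2 by adjusted p, both lower (2.37% of all genes by DESeq2). Angptl4, an inhibitor of lipoprotein lipase, was at 29.5, 31.2 and 98.5 CPM in CS and 19.9, 10.5 and 8.06 CPM in SS-31H_CS (log2 fold change -2.05, adjusted p = 0.132 by edgeR). Without CS replicate 3 the log2 fold change of Angptl4 was -1.25. Pdk4, which turns cells from glucose to fatty acid use, was at 12.6, 11.7 and 34.8 CPM in CS and 8.57, 7.52 and 7.65 CPM in SS-31H_CS (-1.32, adjusted p = 0.170, and -0.63 without CS replicate 3). Both were highest in CS replicate 3, as Plin2 and Gpnmb were. Pparg itself was at 11.8 and 10.3 CPM as group means (-0.21, adjusted p = 0.585), and Cpt1a had a log2 fold change of -0.29.

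Of 10 receptor genes for osteopontin, 4 were lower (8.23% of all tested genes) and 0 higher (9.93%) at an unadjusted edgeR p under 0.05. After adjustment 0 passed by edgeR, and DESeq2 called 2 lower (2.37% of all genes). The median was -0.31. The integrin genes Itga5 (88.2 ± 7.43 and 66.7 ± 2.30 CPM, log2 fold change -0.40, adjusted p = 0.132), Itga9 (-0.63, adjusted p = 0.143) and Itgb6 (-0.49, adjusted p = 0.143) were lower without overlap.

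**Figure D5:**
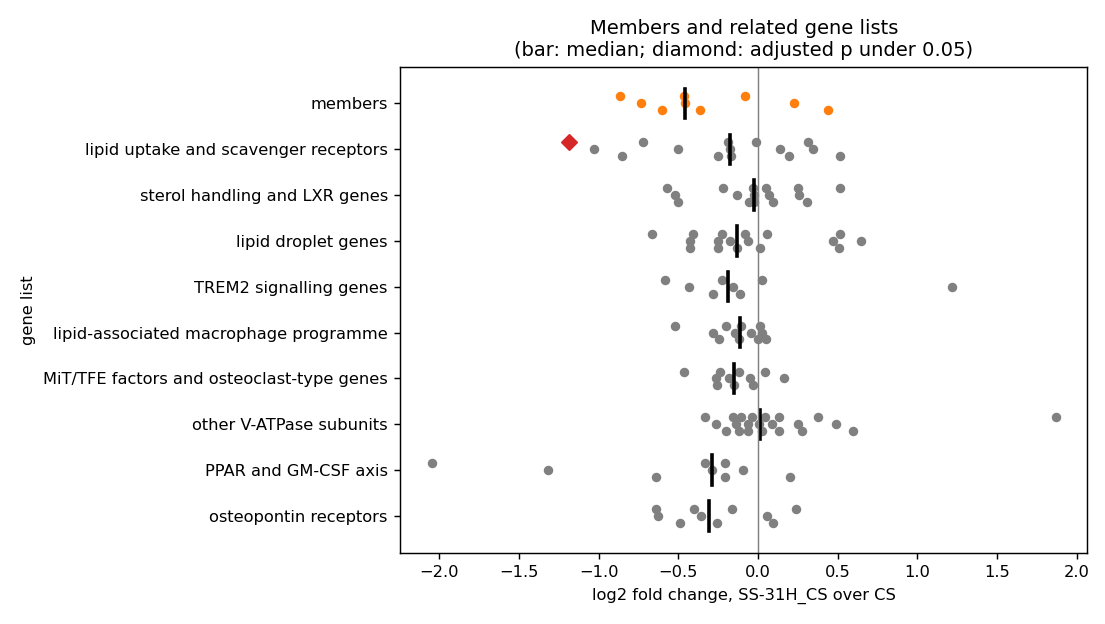
Log2 fold change, SS-31H_CS over CS, of each tested gene in the member set (orange) and in 9 related lists (grey), with a black bar at each list's median and a red diamond for a gene with an adjusted p under 0.05. Lpl is the gene past the threshold; medians run from -0.46 in the member set to 0.01 in the other proton pump subunits.

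Gpnmb was also compared with every other tested gene of at least 1 CPM, 15747 in all, by the Pearson correlation of log2 CPM over the 6 libraries. Among the most alike were Ivl (r = 0.997), Lamc3 (0.997), Ap2b1 (0.997) and Slc6a8 (0.993). Ivl, the cornified envelope protein involucrin, was at a mean of 1.81 CPM in CS, and Lamc3, a laminin chain, had a log2 fold change of -0.93 close to that of Gpnmb. With 6 libraries that share the group difference, 515 genes reached an r of 0.9 or more, so the ranking describes these libraries alone.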

How the data were processed

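Lung total RNA from 6 libraries, 3 CS and 3 SS-31H_CS, was sequenced with Illumina RNA sequencing. The authors deposited raw counts per Ensembl gene, and FPKM, of all 6 libraries, per the file headers. The submitters' processing notes name cutadapt 1.9.1, HISAT2 2.0.1, HTSeq 0.6.1 and GRCm38. The annotation release, strand setting and filters are not given in the sources used here.

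Symbols and coordinates came from GENCODE M21 (55394 identifiers matched, 179 did not). Counts were tested with edgeR 4.0.16 (R 4.3.3): TMM, its low-count filter (minimum count 10, minimum total 15), the quasi-likelihood test, two-sided, with Benjamini-Hochberg adjustment over 16965 genes and a threshold of 0.05. Log2 fold changes set SS-31H_CS over CS. Intervals are 95% from the fit. DESeq2 1.42.0 and limma 3.58.1 gave alternatives. Values of single list genes with 1 library left out were added after the values were seen. Total counts were 15611925 to 17360052 per library, and intervals cover only these libraries' spread.

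The members, lists and tests were chosen with earlier results of these data known. Named genes were the members, the 3 lowest-p genes of each list and any called one, the first markers of each marker list and the 5 genes most like Gpnmb, not all of which are reported here. Mertk, Chil3, Lyz2, Atp6v0d1, Plin3, Nr1h2, Nr1h3, Pparg, Adipoq, S100a8 and S100a9 are named outside that rule or chosen after their values were seen.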

Additional observations from a re-analysis of the deposited data

How the results depend on the processing

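The number of genes called over all genes was 26, and 12 with library size alone, 648 without the low-count filter, 941 by DESeq2, 6 by limma voom, 6, 5 and 4 by limma trend on log2(FPKM + 1), log2(FPKM + 0.1) and log2(FPKM + 1) without a filter on low values, and 299 at an adjusted p under 0.1. It was 1 to 15 with 1 library left out, 15 without CS replicate 3. Of the members 0 were called, and 1 (Gpnmb) without the low-count filter, 3 by DESeq2 and 1 (Gpnmb) at an adjusted p under 0.1. With any 1 library left out 0 members were called, and 3 to 6 had an unadjusted edgeR p under 0.05. The share of all genes at that level was 18.2% with all 6 libraries. It was not counted with 1 library left out, so these member counts have no share to be set against. The members' median log2 fold change stayed between -0.51 and -0.34 over every alternative.

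The replicate numbers are shared between the groups but the labels do not say what they pair. Deviations of same-numbered libraries correlated at 0.01, 0.04 and -0.06, which cannot show whether a number marks a shared batch or day. With the replicate block 0 genes were called over all genes, 0 members, and 0 in the lipid uptake list.

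In the lists, the number called without the low-count filter, by DESeq2 and at an adjusted p under 0.1 was 3, 5 and 2 for lipid uptake (1 in the main test, 0 to 1 with 1 library left out, the 1 without CS replicate 3), 2, 2 and 2 for sterol handling and 1, 1 and 1 for the other proton pump subunits. It was 2 and 2 for TREM2 signalling, 2 and 2 for the PPAR and GM-CSF axis and 1 and 2 for osteopontin receptors in the first 2 of these settings, and 1 by DESeq2 for lipid droplets. All other list counts were within 1.5 times of the main count.

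Over 18 alternatives Gpnmb, Spp1, Apoe, Plin2, Cd36, Msr1 and Atp6v0d2 kept their direction. Among these, the threshold of 0.1 and edgeR with robust dispersion left the main log2 fold changes unchanged, so they are no check of direction. With 1 library left out Abca1 ranged from -0.033 to 0.42, turning without CS replicate 3. Abcg1 turned by limma trend (0.025, 0.031 and 0.025 in the 3 FPKM settings), when CS replicate 1 (0.16) or SS-31H_CS replicate 2 (0.03) was left out, ranging from -0.34 to 0.16.

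Relative to the alveolar macrophage markers in place of the macrophage markers, the log2 difference turned positive for Gpnmb (0.14), Spp1 (0.089), Abcg1 (0.98), Plin2 (0.64), Cd36 (0.54), Msr1 (0.28) and Atp6v0d2 (0.54). Without Chil3, an alternative added after seeing the data, it was positive for Abcg1 (0.26). Leaving out Lyz2 was also added after seeing the data and turned no sign. For Abca1 it ranged from -0.0143 to 0.20 with 1 library left out, turning without CS replicate 3 or SS-31H_CS replicate 3.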

Other observations

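Among the 9 tested members, CS replicate 3 held the highest level of 4 (Gpnmb, Spp1, Plin2 and Msr1) and the lowest of 3 (Apoe, Abca1 and Abcg1). On the log2 CPM scale it lay 0.69 above the mean of the 6 libraries for Gpnmb and 0.94 above it for Msr1, and for Abca1 at -0.77. In SS-31H_CS replicate 3, Spp1 (-1.52) and Msr1 (-1.46) were the lowest, and Abca1 was the highest of all libraries (0.45). SS-31H_CS replicate 2 was the lowest for 3 members (Gpnmb, Plin2 and Atp6v0d2). The median member level was above that mean in CS replicates 1, 2 and 3 (0.37, 0.17 and 0.12). In SS-31H_CS it was 0.04, -0.16 and -0.23 in replicates 1, 2 and 3. These are values of single libraries, with no test.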
